A study of Rattus norvegicus with 28 samples.

Results

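The 9 arrays described here carried RNA of adult male rats that had received a saline injection as pups: 5 arrays of the PAG (periaqueductal grey of the midbrain) and 4 of the RVM (rostral ventromedial medulla). They were chosen by their sample titles out of 28 arrays in the series. Each array compared RNA of saline-injected rats, on channel 1 (Alexa 647), with RNA of the same region from rats that had no injection, on channel 2 (Alexa 546), and dyes were never swapped. Pups were injected once into the sole of the left hindpaw on postnatal day 3, weaned on day 21 and kept until day 59. No strain is named, and the volume of saline injected was not stated in the labels. The other arrays held carrageenan-injected rats, and 10 of them, 5 of PAG and 5 of RVM, serve as a comparison below. They had the same injection day and age. In those pups carrageenan, a seaweed polysaccharide that inflames tissue, had been dissolved in saline. No label says that arrays of a group came from separate rats, so the p-values rest on array-to-array spread alone, and that may be technical.

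The PAG and the RVM are successive stations of the descending pathway by which the brain turns spinal pain signals up or down. PAG neurons project to the RVM, and RVM neurons, some of which release serotonin, project on to the dorsal horn of the spinal cord. Opioid peptides, GABA, glutamate, serotonin, substance P and neurotensin all act in this pathway. The comparison made here asks how the injection itself is reflected in each station.

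Each value is a log2 ratio, most likely of injected over uninjected tissue, for 1 feature, a row of the deposited table. A value of 1 is then a doubling and -1 a halving in the injected rat. The 228 features of the array were for receptors, transporters, peptide precursors, neurotrophins and cytokines. They are given by number where a gene has several, and 26 have no gene name. A ratio of exactly 0 was taken as not measured, which held for 1066 of 2052 saline values (51.9%). Since each ratio is set within a region, it holds no level of a gene in PAG against RVM, and fewer cells of a type and less RNA per cell cannot be told apart. The array had 0 features for the marker genes of neurons, astrocytes, oligodendrocytes, microglia or blood looked for. For serotonin neurons it had 1, of Slc6a4, and for noradrenaline neurons 2, of Slc6a2. Of these, 0 were measured on enough arrays of both regions to be compared, so the makeup of the tissue could not be checked.

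After saline, more of the array was measured in the RVM. The PAG arrays 1 to 5 had a ratio for 92, 90, 94, 95 and 33 features. The RVM arrays 1 to 4 had one for 100, 146, 141 and 195. The groups did not overlap, although PAG array 4 and RVM array 1 were close. The means were 80.8 ± 26.8 (SD, n = 5) and 145.5 ± 38.9 (n = 4), a difference of -64.7 (exact two-sided permutation p = 0.00794, the smallest that these numbers of arrays allow, and 0.0159 adjusted over the 2 tests made on arrays). Without PAG array 5 the difference was -52.75 (exact permutation p = 0.0286). With arrays of the same number taken as pairs it was also -52.75 (exact permutation p = 0.125, the smallest that such pairs allow). The carrageenan arrays had the opposite order, with 181, 157, 151, 169 and 86 measured features on PAG arrays 1 to 5 and 108, 30, 110, 29 and 72 on RVM arrays 1 to 5. There the PAG arrays overlapped the RVM arrays through PAG array 5 only.

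The added features came from every class of gene. The RVM arrays had a ratio for a median of 16 of 23 ionotropic glutamate receptor features, against 8 on the PAG arrays. The medians were 14 against 9 of 22 GABA and glycine receptor features, 17 against 10 of 27 neuropeptide receptor features and 9.5 against 3 of 21 cytokine features. No source used here says how the authors decided that a spot had no ratio, and the part of that step in this difference was not tested. As a result 127 features had at least 3 RVM arrays and 80 had at least 3 PAG arrays. Of these, 72 had 3 in each region and could be compared, 55 could be read in the RVM alone and 8 in the PAG alone.

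Ratios also lay further from 0 in the RVM. The SD of an array's ratios was 1.11, 1.69, 0.674, 0.550 and 0.834 on the PAG arrays, and 1.92, 1.60, 1.51 and 1.33 on the RVM arrays. PAG array 2 alone lay among the RVM arrays. The means were 0.972 ± 0.454 (n = 5) and 1.59 ± 0.244 (n = 4), a difference of -0.62 that missed the threshold (exact permutation p = 0.0556). Without PAG array 2 the difference was -0.80 (exact permutation p = 0.0286). With any other single array left out it also missed the threshold (exact permutation p = 0.0893 to 0.125). Over the 19 features measured on every saline array it was -0.19 (exact permutation p = 0.421).

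**Figure D1:**
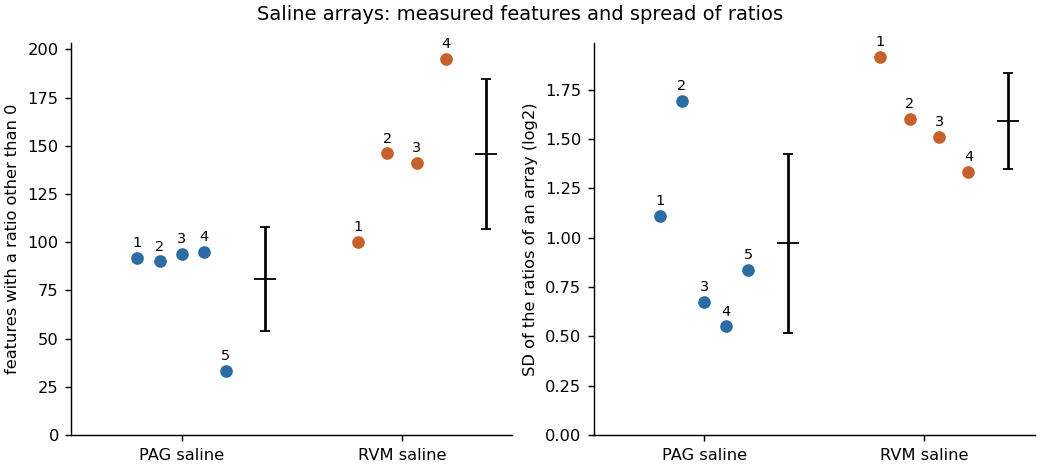
Number of features with a ratio (left) and SD of the log2 ratios of an array (right) for the saline arrays. Points are single arrays with their numbers, bars are the mean ± SD of 5 PAG and 4 RVM arrays. All 4 RVM arrays measured at least 100 features and no PAG array more than 95, while PAG array 2 reaches an SD of 1.69, within the RVM range.

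The main comparison set the ratios of the PAG against those of the RVM. No feature passed. The 7 with the smallest p were an unnamed feature, Polr2m and 1 Gabbr1 feature, which averaged higher in the PAG, and the serotonin receptors Htr4, Htr5b and Htr2c and the tachykinin receptor Tacr2, which averaged lower. By limma, 0 of 72 features (0%) had an adjusted p below 0.05, and 7 (9.72%) had an unadjusted p below 0.05, of which 3 (4.17%) averaged higher in the PAG and 4 (5.56%) lower. The exact permutation test of each feature also called 0, with 6 below 0.05 before adjustment, but the smallest p it allows was 0.00794 to 0.1 by feature. Groups did not overlap in 5 of 72 features (6.94%), with the PAG above in 2 (2.78%) and below in 3 (4.17%). The intervals of the differences were wide, 1.53 in the median, so a missing call leaves room for large differences. The number of measured features and the spread of ratios differed between the same groups, and their part in what follows was not tested.

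Htr4, a serotonin receptor that couples to adenylyl cyclase, was the only feature that lay on opposite sides of 0 in the regions on every array. PAG arrays 1 to 4 read -0.030, -0.274, -0.092 and -0.717, and RVM arrays 1 to 4 read 0.166, 1.222, 1.088 and 0.112. Every PAG value was below every RVM value, although several on each side were close to 0. The means were -0.28 ± 0.31 and 0.65 ± 0.59 (SD, n = 4 each), a difference of -0.93 (95% interval -1.67 to -0.18, limma adjusted p = 0.336).

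Htr5b, another serotonin receptor, averaged above 0 in both regions. PAG arrays 3, 4 and 5 read 0.090, 0.139 and 1.204, and the RVM arrays read 1.442, 3.289, 1.958 and 1.635. The groups again did not overlap. The difference was -1.60 (95% interval -2.89 to -0.31, adjusted p = 0.336).

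Htr2c, a serotonin receptor that couples to phospholipase C, stayed close to 0 in the PAG, at 0.013, -0.307, 0.056, 0.180 and 0.156. In the RVM it read 1.994, 0.956, 0.809 and 0.079. RVM array 4 lay among the PAG arrays and the other 3 lay above them. The difference was -0.94 (95% interval -1.73 to -0.15, adjusted p = 0.336).

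As a list, only 5 of 16 serotonin features could be tested. Of these, 4 averaged lower in the PAG, with a median difference of -0.93. Over all tested it was 41 of 72 features, with a median of -0.042. Htr4, Htr5b and Htr2c made up 3 of the 4 features in the whole comparison that had an unadjusted p below 0.05 with the PAG lower. The other tested members, Htr2a feature 11 and Htr5a, differed by 0.014 (95% interval -0.16 to 0.19) and -0.0016 (95% interval -0.18 to 0.17). Against 0 in the RVM the class did not stand out. There 5 of 9 serotonin features averaged above 0, with a median of 0.0018, against 68 of 127 and 0.067 over all features. Of Htr2a, the target of many atypical antipsychotics, feature 11 read between -0.004 and 0.053 in the PAG and between -0.004 and 0.014 in the RVM. Htr2a feature 12 had no PAG array and read -2.154, -0.327 and -0.162 on RVM arrays 1, 2 and 4. The transporter Slc6a4, which takes serotonin back up into the neurons that release it, had a ratio on only 2 RVM arrays and was not compared.

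**Figure D2:**
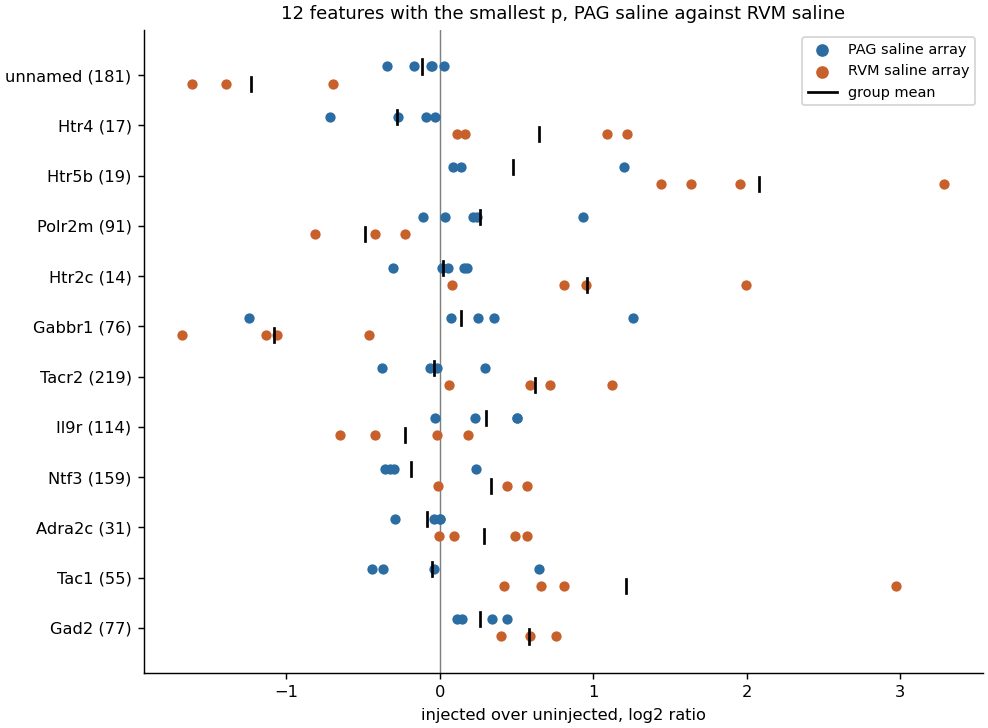
Log2 ratios of the 12 features with the smallest p between PAG saline (blue) and RVM saline (orange), 1 point per measured array, with black bars for group means and feature numbers in brackets. Htr4, Htr5b and the unnamed feature 181 show no overlap between regions, and RVM points of Htr2c, Tacr2 and Tac1 reach well above the PAG points.

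The tachykinins and their receptors averaged lower in the PAG in 4 of 4 features, with a median difference of -1.17. Tacr2, the neurokinin A receptor, read -0.065, 0.293, -0.015 and -0.373 on PAG arrays 1 to 4 and 0.718, 1.125, 0.589 and 0.062 on the RVM arrays. RVM array 4 alone lay within the PAG range. The difference was -0.66 (95% interval -1.25 to -0.072, adjusted p = 0.336).

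Tac1, which encodes substance P and neurokinin A, had 4 features, of which 2 could be tested. Feature 55 read -0.442, 0.645, -0.036 and -0.369 in the PAG and 0.662, 2.974, 0.419 and 0.813 in the RVM. All RVM values were above 0, and PAG array 2 lay among them. The difference was -1.27 (95% interval -2.66 to 0.13, adjusted p = 0.442). Feature 79 differed by -1.07 (95% interval -2.95 to 0.80), but its RVM values ran from -0.778 to 2.917. Feature 28 lay below 0 in both regions, at -1.513 on PAG array 2 and at -1.704 and -1.416 on RVM arrays 2 and 4, and feature 217 was measured on RVM array 4 alone (0.143). For Tacr3, the neurokinin B receptor, the difference of -1.56 (95% interval -4.83 to 1.70) rested on RVM array 2, which read 5.284 where the other 2 measured RVM arrays read -0.025 and 0.023. Without that array too few were left for a test.

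On the other side stood feature 76 of Gabbr1, which encodes part of the slow, G protein-coupled GABA-B receptor. The PAG arrays read 0.247, -1.242, 0.353, 1.261 and 0.074, and the RVM arrays read -0.460, -1.057, -1.677 and -1.130. All RVM values were below 0, and PAG array 2 lay among them. The means were 0.14 ± 0.90 (n = 5) and -1.08 ± 0.50 (n = 4), a difference of 1.22 (95% interval 0.13 to 2.31, adjusted p = 0.336). Of the 7 other features of the gene 2 could be tested. Feature 36 differed the other way, by -1.19 (95% interval -3.65 to 1.27), and feature 37 by 0.039 (95% interval -1.28 to 1.36). Feature 35 read 0.969 and 0.278 on PAG arrays 3 and 4 and 1.317 and 0.991 on RVM arrays 3 and 4. Features 34, 38, 75 and 220 had no PAG array, and their RVM values ran from -2.36 to 1.649. With the features of a gene averaged, Gabbr1 differed by -0.073 (adjusted p = 0.976).

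The smallest p of all belonged to the unnamed feature 181. It read -0.165, -0.343, -0.058, 0.025 and -0.047 in the PAG and -0.692, -1.393 and -1.611 on RVM arrays 2 to 4, without overlap. The difference was 1.11 (95% interval 0.60 to 1.63, adjusted p = 0.0966). It passed in 3 other settings, with array weights (adjusted p = 0.01), with all 19 PAG and RVM arrays in 1 limma fit (0.0155) and with the features of a gene averaged (0.0406). It did not pass in the rest. The smallest limma adjusted p of any feature was 0.572 after quantile normalization, 0.205 with array number as a block and 0.14 with all 28 arrays. With an array left out that of feature 181 ran from 0.0723 to 0.279. Leaving out 1 of RVM arrays 2 to 4 left too few RVM values to test it, so that range does not cover them. Polr2m, which codes for a subunit of an RNA polymerase II complex, averaged 0.27 ± 0.40 in the PAG (n = 5) and -0.49 ± 0.30 in the RVM (n = 3), also without overlap. Its difference was 0.75 (95% interval 0.13 to 1.37, adjusted p = 0.336). The unnamed feature 62 differed by -0.24 (95% interval -0.55 to 0.056).

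The remaining non-overlapping feature was Il10ra, the ligand-binding subunit of the interleukin 10 receptor. It read from -0.835 to -0.020 in the PAG and from -0.016 to 0.003 in the RVM, a difference of -0.26 (95% interval -0.65 to 0.13). Its RVM values were all close to 0, and PAG array 1 lay just below them.

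**Figure D3:**
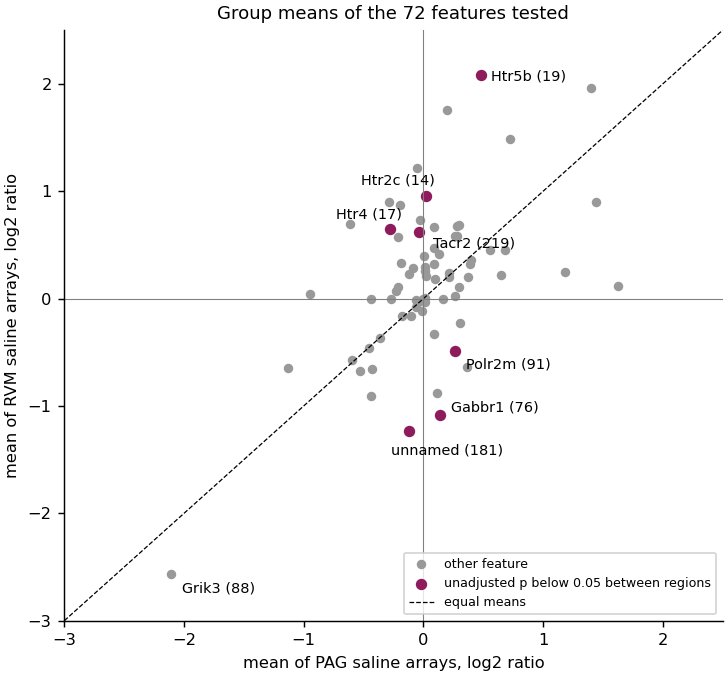
Mean log2 ratio of the RVM saline arrays (vertical) against that of the PAG saline arrays (horizontal) for the 72 features with at least 3 measured arrays in each region; the dashed line marks equal means. The 7 features with an unadjusted p below 0.05 (purple) lie away from the line, and Grik3 feature 88 lies far below 0 in both regions.

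Ionotropic glutamate receptors, which carry fast excitation, averaged higher in the PAG in 7 of 7 tested features, with a median difference of 0.10 against -0.042 over all 72, and 0 of them had an unadjusted p below 0.05. Of the NMDA receptor subunits, Grin3b differed by 0.41 (95% interval -0.14 to 0.97) and Grin2d feature 167 by 0.47 (95% interval -0.36 to 1.31), whereas Grin2d feature 171 gave 0.10 (95% interval -0.65 to 0.84). Grin2b was nearly the same in both regions, at -0.45 ± 0.20 in the PAG (n = 5) and -0.46 ± 0.30 in the RVM (n = 4), with every array below 0 and a difference of 0.012 (95% interval -0.38 to 0.41). Metabotropic glutamate receptors were split, 2 higher and 2 lower. Among them Grm4 feature 149 read 0.004 to 0.179 in the PAG and -2.284 to 0.153 in the RVM, a difference of 0.99 (95% interval -0.21 to 2.19). Averaged with Grm4 feature 150, which only 2 PAG arrays measured, it differed by 1.91 and passed (limma adjusted p = 0.000504). That average does not hold the same features in both regions, since all 4 RVM arrays measured feature 150 (mean -2.90).

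The opioid features tested were close to each other in both regions or had wide intervals, with 1 of 4 averaging higher in the PAG. All 4 were of peptide precursors. No opioid receptor feature had 3 measured arrays in each region, so the receptors were not compared. Pomc, the precursor of beta-endorphin, gave -0.19 for feature 191 (95% interval -0.45 to 0.069), and feature 198 gave -1.31 (95% interval -3.84 to 1.22). The regions were almost level for Penk, from which enkephalins are cut, at 0.0045 for feature 194 (95% interval -1.38 to 1.38) and -0.030 for feature 196 (95% interval -0.59 to 0.53). Penk feature 197 was not tested, and read 0.985 and 1.392 on PAG arrays 3 and 4 and 0.911 and -0.359 on RVM arrays 2 and 4.

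Of the wider class of neuropeptide precursors 7 of 9 averaged lower in the PAG (median -0.19), and of their receptors 5 of 8 (median -0.23). Nts, the neurotensin precursor, averaged above 0 in both regions on feature 184, at 0.29 ± 0.29 in the PAG (n = 5) and 0.68 ± 0.46 in the RVM (n = 4), with every array above 0. Features 182 and 183 were each measured on a single PAG array (-0.158 and -0.3) and read from -0.326 to 5.146 and from 0.269 to 3.48 in the RVM. The receptor Ntsr1 averaged 0.0052 ± 0.33 (n = 5) and 0.40 ± 0.13 (n = 3), a difference of -0.40 (95% interval -0.89 to 0.095).

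Among the transmitter genes left, noradrenaline receptors averaged lower in the PAG in 3 of 4 features. Adra2c, an alpha-2 adrenergic receptor, differed by -0.37 (95% interval -0.77 to 0.025) and Adra2a feature 33 by -0.31 (95% interval -0.82 to 0.20). Adra2a feature 32 went the other way, at 0.65 ± 0.84 in the PAG (n = 4) and 0.22 ± 0.36 in the RVM (n = 3), a difference of 0.42 (95% interval -0.75 to 1.59). Adra2a feature 27 had 1 array, RVM array 4 (-0.772). Gad2, which makes GABA from glutamate, was above 0 on every array that measured it, from 0.114 to 0.441 in the PAG and from 0.402 to 0.756 in the RVM, and differed by -0.32 (95% interval -0.69 to 0.045). Slc1a6, a glutamate transporter, differed by -0.44 (95% interval -1.45 to 0.57), feature 95 of the histamine receptor Hrh3 by 0.24 (95% interval -0.43 to 0.90), and the GABA-A subunit Gabrq by -0.75 (95% interval -2.00 to 0.49). For Gabrq, RVM array 2 read 2.406, and without that array the difference was -0.20. Hrh3 feature 9 was measured on PAG array 2 (-4.873) and RVM arrays 2 and 4 (-0.432 and 0.217). GABA and glycine receptor features were split, 4 higher and 3 lower.

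Of the growth factor and immune genes, neurotrophin features averaged lower in the PAG in 3 of 4. Ntf3, a neurotrophin, differed by -0.52 (95% interval -1.06 to 0.028), and Ngfr, the low-affinity neurotrophin receptor, by -0.79 (95% interval -1.85 to 0.28). RVM array 2 read 2.074 for Ngfr, and without that array the difference was -0.28. Among cytokine receptors 2 of 5 averaged higher in the PAG. Il9r, the interleukin 9 receptor, differed by 0.53 (95% interval -0.0037 to 1.06), and Il11ra1, the interleukin 11 receptor, by -0.28 (95% interval -0.62 to 0.048). The cytokines Il1b and Il13 differed by -0.58 (95% interval -1.71 to 0.54) and -0.56 (95% interval -5.27 to 4.16).

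Means of the regions went the same way more often than not. Of the 72 features 32 averaged above 0 in both regions and 18 below 0 in both, and the means correlated with r = 0.53 across features (Spearman 0.36). This is a description over 72 features that share arrays and the same unswapped dyes, and genes are not independent replicates. Grik3, a kainate receptor subunit, lay lowest in both on feature 88. The PAG arrays read -3.148, -5.479, -1.0, -0.112 and -0.800, and the RVM arrays read -1.500, -2.505, -3.752 and -2.507. Every array was below 0, and the means of -2.11 ± 2.20 and -2.57 ± 0.92 differed by 0.46 (95% interval -2.07 to 2.99). This was not particular to saline. After carrageenan feature 88 averaged -4.99 ± 3.23 in the PAG (n = 5) and -4.06 ± 1.14 in the RVM (n = 3). Grik3 feature 89 was also below 0 on each array that measured it, at -0.92 and -0.042 on PAG arrays 1 and 2 and -3.906, -1.318 and -1.623 on RVM arrays 2 to 4.

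Each region was then set against its own uninjected rats, with the mean ratio tested against 0 over every feature measured on at least 3 arrays of that region. Without a dye swap, an effect of the dyes cannot be told apart from that of the injection here. In the RVM, 1 of 127 features passed by limma (0.787%), and 27 (21.3%) had an unadjusted p below 0.05, 12 above 0 and 15 below. In the PAG, 0 of 80 passed (0%), with 10 (12.5%) at an unadjusted p below 0.05, 6 above 0 and 4 below. Over the 25 features measured on every PAG array 2 passed, Grin2b and Pdyn, the dynorphin precursor (adjusted p = 0.0428 each). That the RVM had a call and the PAG none does not show a difference between them. Of the 27 RVM features 17 had too few PAG arrays to be compared.

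The feature that passed was feature 180 of Grin3a, an NMDA receptor subunit that lowers the calcium flow of the channel. It fell to -4.586, -3.345, -5.137 and -4.397 on the RVM arrays, a mean of -4.37 ± 0.75 (SD, n = 4; limma adjusted p = 0.0178, 95% interval -5.28 to -3.45). No PAG saline array had a ratio for it. The other feature of the gene, 228, was measured on RVM arrays 3 and 4 only, at -4.352 and -5.295, too few to test. In carrageenan rats only 2 PAG arrays, at -4.193 and 0.037, and 2 RVM arrays, at -0.470 and 0.214, measured feature 180. The call was lost without RVM array 1 (adjusted p = 0.0546), 3 (0.0809) or 4 (0.112), though the mean stayed between -4.71 and -4.11 over all 4 fits with an array left out.

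Some other glutamate receptors in the RVM lay below 0 with Grin3a but did not pass. Gria1, an AMPA receptor subunit, read -2.521, -3.184 and -2.137 on RVM arrays 2 to 4, and -0.081 on the single PAG array that measured it (RVM adjusted p = 0.0654). Grm8, a metabotropic receptor, read -2.482, -1.984 and -1.799 on the same arrays (adjusted p = 0.0654). Grm4 feature 150 averaged -2.90 ± 1.25 (n = 4, adjusted p = 0.0754), whereas Grm4 feature 149 averaged -0.88 ± 1.10 (n = 4). Of 7 metabotropic receptor features measured in the RVM 3 averaged just above 0, namely Grm3 (0.072), Grm5 (0.048) and Grm6 (0.026). The median of the 7 was -0.20. Of 15 ionotropic receptor features measured in the RVM 12 averaged below 0, with a median of -0.46, against 59 of 127 and a median of 0.067 over all features. In the PAG 6 of 7 averaged below 0, with a median of -0.11, against 34 of 80 and a median of 0.020.

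Above 0 in the RVM lay Hrh1, the histamine receptor through which many antihistamines sedate, at 2.193, 1.489, 2.203 and 1.194 (mean 1.77 ± 0.51, n = 4, adjusted p = 0.0654). No PAG saline array measured it. Htr5b, described above, averaged 2.08 ± 0.83 (n = 4, adjusted p = 0.0740). Pomc feature 192 lay below 0, at -1.239, -0.956, -0.672 and -0.860 (adjusted p = 0.0740), but the other Pomc features averaged 0.21 ± 0.18 (feature 191) and 0.69 ± 1.44 (feature 198). The 3 features of this gene thus did not go 1 way. Gabrr2 and an unnamed feature were likewise measured on all 4 RVM arrays and no PAG array. Gabrr2, a GABA receptor subunit, averaged 0.29 ± 0.98 and the unnamed feature 189 averaged 0.57 ± 0.39 (n = 4 each).

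**Figure D4:**
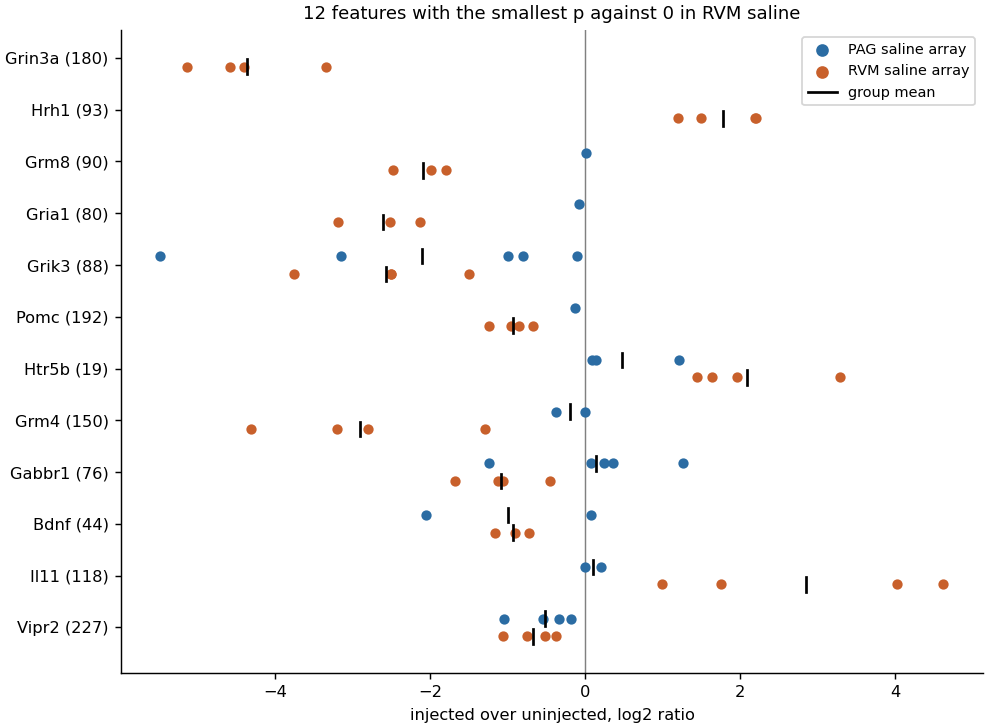
Log2 ratios of the 12 features with the smallest p against 0 in the RVM saline arrays (orange), with the PAG saline arrays that measured them (blue); black bars are means of at least 2 arrays. Grin3a lies at or below -3.345 on all 4 RVM arrays and has no PAG point, as is true of Hrh1 above 0.

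In the PAG the values were smaller. Pdyn read 0.627, 0.364, 0.550, 0.729 and 0.167, all above 0 (mean 0.49 ± 0.22, n = 5, adjusted p = 0.174), while only RVM arrays 2 and 4 measured it, at 5.989 and -0.318. Grin2b shared the smallest adjusted p of 0.174. Slc6a4 read 0.428, 0.323 and 0.694 on PAG arrays 1, 3 and 4 (adjusted p = 0.282). Adora2a, an adenosine receptor, averaged 0.36 ± 0.072 on feature 23 (n = 3) and 1.45 ± 1.52 on feature 24 (n = 4), with every array above 0. Slc1a6 averaged -0.44 ± 0.13 (n = 3) and Hrh3 feature 95 averaged 0.69 ± 0.50 (n = 4), neither past the threshold.

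Whether the regional difference was particular to saline was tested against the carrageenan arrays, as the difference after saline minus that after carrageenan over the 48 features with 3 arrays in each of the 4 groups. With limma 0 of 48 passed (0%), and 3 (6.25%) had an unadjusted p below 0.05: Gabbr1 feature 76, Htr4 and Tac1 feature 55. All 3 had the opposite order of regions in the carrageenan arrays.

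Gabbr1 feature 76 differed between PAG and RVM by 1.22 after saline and by -1.31 after carrageenan, where the PAG averaged -1.58 ± 0.83 (n = 5) and the RVM -0.26 ± 0.30 (n = 4). The PAG carrageenan arrays ran from -2.581 to -0.701 and the RVM carrageenan arrays from -0.538 to 0.07, without overlap. The differences were 2.53 apart (95% interval 1.16 to 3.91, adjusted p = 0.0633). It passed without PAG saline array 2 (2.88, adjusted p = 0.00659), without RVM saline array 1 (2.74, 0.0417), without PAG carrageenan array 1 (2.75, 0.0343) or 5 (2.73, 0.0393), with array weights (2.91, 0.0144) and with zeros kept as 0 (2.59, 0.0268). No other setting called it. With an array left out its limma adjusted p ran up to 0.104, and after quantile normalization the smallest of any feature was 0.293. Gabbr1 feature 37, the other feature of the gene tested here, differed by 0.039 after saline and by 0.78 after carrageenan. Those differences were -0.74 apart (95% interval -2.26 to 0.78), the other way. The number of measured features turned between saline and carrageenan as well, and its part in these differences was not tested. After carrageenan Htr4 was above 0 on all 5 PAG arrays, from 0.062 to 1.123, and lay between -0.076 and 0.286 on 4 RVM arrays. It differed by -0.93 after saline and by 0.52 after carrageenan, -1.45 apart (95% interval -2.33 to -0.56, adjusted p = 0.0806), and passed without RVM saline array 1 (-1.61, adjusted p = 0.0417). Tac1 feature 55 read 0.269 to 1.323 on the PAG carrageenan arrays and -0.322 to 0.055 on the RVM carrageenan arrays. Its regional difference went from -1.27 after saline to 0.76 after carrageenan, -2.03 apart (95% interval -3.38 to -0.68, adjusted p = 0.0959).

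**Figure D5:**
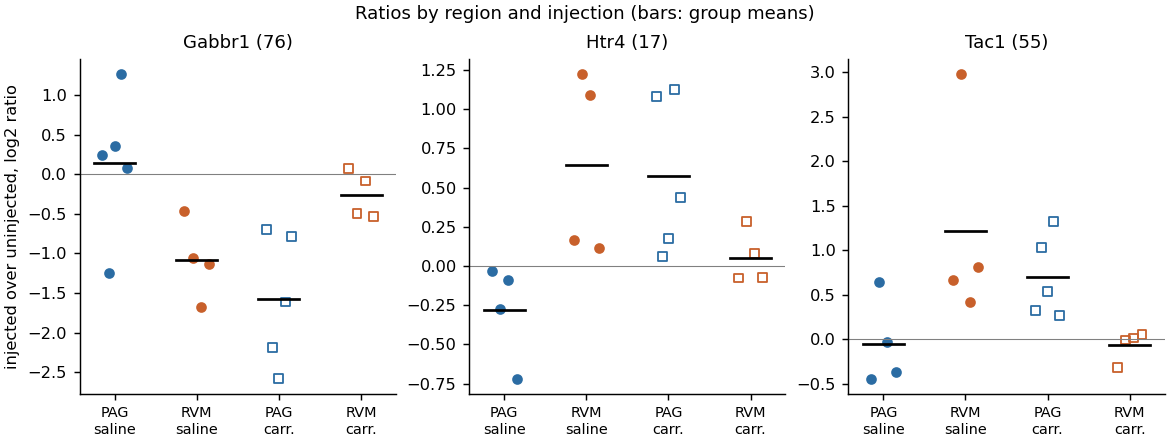
Log2 ratios of Gabbr1 feature 76, Htr4 and Tac1 feature 55 on every measured PAG (blue) and RVM (orange) array after saline (filled circles) or carrageenan (open squares); bars are group means. For each feature the order of the PAG and RVM means turns between saline and carrageenan.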

How the data were processed

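RNA (5 µg, labelled with a 3DNA kit) was hybridised to 2-colour oligonucleotide arrays for 205 genes, per the labels' protocols. The deposited values are log2 ratios as the authors processed them, 1 per feature and array. That the base is 2 and the ratio injected over uninjected was inferred, and the scanning, spot filter, background correction and normalization are not given in the sources used here. Exact zeros were set to missing, and no further normalization was made. Gene symbols came from the platform annotation: 202 features had 1 symbol, 26 none and 0 several, and 191 matched the gene table.

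Features with at least 3 measured arrays per group were tested two-sided with limma 3.58.1 in R 4.3.3 (lmFit and eBayes), with Benjamini-Hochberg adjustment over all features tested and a threshold of 0.05. Values per array were compared by exact permutation. Group means against 0 used the arrays of that group, and the saline-carrageenan comparison used all 19 PAG and RVM arrays. The code was tested on simulated data. Depth does not apply to arrays, and their number limits the precision. Features named are those that passed, the 20 with the smallest p between regions, those whose groups did not overlap, tested opioid and tachykinin features, the 2 with the smallest p in each gene list, the 8 with the smallest p against 0 in each region, other features of the same genes, and those measured on all arrays of only 1 group. Htr2a, Htr5a, Bdnf, Il11 and Vipr2 were named after their values were seen. The members and lists were chosen with earlier results of these data known. Slide and scan date were not in the sources used here, so batches were not tested.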

Additional observations from a re-analysis of the deposited data

Results flagged for a closer look

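Of 69 groups of arrays checked, 10 had an array far from the others. The check flags about 1 in 20 by chance only in independent groups that were not selected. Here the groups shared arrays, and many features were chosen by small p, so the 10 cannot be set against that rate. PAG array 5 had the fewest measured features of its group, 33. Among PAG arrays, array 2 was far above the others for Ntf3 (0.237) and Tacr3 (0.685), and array 4 was far below them for Adra2c (-0.292), Ngfr (-0.927) and Il10ra (-0.835). PAG array 5 stood above the others for Grin2d feature 167 (0.051). Among RVM arrays, array 2 was far above the others for Tac1 feature 55 (2.974) and Gabrq (2.406), and array 4 was below them for Adra2a feature 33 (-0.042). Htr4 was marked because the 4 PAG arrays that measured it lay below 0 and all 4 RVM arrays above it, with a difference of -0.93 that did not pass (limma adjusted p = 0.336).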

How the results depend on the processing

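For the 56 results followed, 897 of 939 alternative values kept their direction and their side of the threshold, 21 were reversed, 18 newly passed and 3 no longer passed. Between regions limma called 4 features with zeros kept as 0, 1 with array weights, 1 with all 19 arrays in 1 fit and 2 with the features of a gene averaged (feature 181 and Grm4, whose 2 features were measured on different arrays). It called 0 with any array left out. With zeros kept, 212 features were tested in place of 72, and unmeasured spots entered as equal values without spread. Those 4 calls need not rest on ratios measured in both regions. Against 0, limma called 2 PAG features when only those measured on every array were kept. In the RVM it called 3 after quantile normalization, 3 when only features measured on every array were kept, 3 with both saline groups in 1 fit, and 0 to 1 with an array left out. For saline against carrageenan it called 6 with zeros kept, 1 with array weights and 0 to 2 with an array left out. The 6 have the same limit, with 225 features tested in place of 48. The cause was not tested.

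Array numbers were shared between regions but were not taken as pairs in the main tests. Deviations from the group means correlated at -0.072, 0.26, 0.18 and 0.093 in same-numbered pairs. Pairs with unlike numbers ran from -0.37 to 0.50. So few pairs cannot show whether equal numbers share rats. With the replicate block 0 features were called between regions. The block gave -52.8 for measured features (exact permutation p = 0.125, the smallest it allows) and -0.58 for the SD of ratios (exact permutation p = 0.25). As a median absolute deviation the spread differed by -0.54 (exact permutation p = 0.0238), and its SD difference ran from -0.80 to -0.51 with an array left out.

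Directions turned for these differences, of which Gabbr1 feature 76 was the largest (1.22). After quantile normalization they were Il11ra1 (0.052), Penk feature 196 (0.089), Grin2d feature 167 (-0.089) and Adra2a feature 33 (0.045). With array weights it was Penk feature 196 (0.015). With the replicate block they were Hrh4 (0.057) and Adora2a feature 24 (-0.057). With gene features averaged they were Gabbr1 feature 76 (-0.073), Penk (0.10), Adra2a (0.045) and Hrh3 feature 95 (-0.26). With an array left out, values ran from -0.19 to 0.15 for Penk feature 196, -0.42 to 0.57 for Penk feature 194, -0.057 to 0.99 for Adora2a feature 24, -1.07 to 0.057 for Hrh4 and -1.19 to 0.74 for Il13.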

Other observations

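Feature 227 of Vipr2, a receptor for vasoactive intestinal peptide, and Gad2 were the 2 features with an unadjusted p below 0.05 against 0 in both regions, and neither passed after adjustment in limma. Vipr2 feature 227 averaged -0.53 ± 0.38 in the PAG and -0.68 ± 0.30 in the RVM (n = 4 each), below 0 on every array that measured it. Vipr2 feature 226 was measured on RVM arrays 3 and 4 only (-1.236 and 0.559). Il11, a cytokine, read 4.014, 0.989, 1.746 and 4.619 on the RVM arrays (limma adjusted p = 0.165) and -0.008 and 0.207 on PAG arrays 3 and 4. Bdnf, a neurotrophin, read -1.170, -0.721 and -0.911 on RVM arrays 2 to 4 (limma adjusted p = 0.165) and -2.055 and 0.073 on PAG arrays 1 and 5.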
